A study of Arabidopsis thaliana with 16 samples.

Results

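Of 33602 annotated Arabidopsis thaliana genes in the deposited table, 146 were taken as lowered after 12 h of induction of a nuclear-targeted SPEECHLESS protein. They were chosen by their measured levels: a wild-type mean of at least 20 normalized read counts at 12 h; a highest induced library below the lowest of the other 12 libraries; an induced mean of at most 0.6 of both the same line at 0 h and the wild type at 12 h; and a wild-type 12 h mean of at least 0.8 of its own 0 h mean. These conditions set no limit between the lines at 0 h, where some members, such as THI2.2, were already lower in the inducible line. In all, 19165 genes reached the level minimum and 156 (0.814% of them) met every condition, of which 10 belonged to 12 loci that the rule leaves out by name. Taken singly, the condition on overlap was met by 1.97% of the 19165 genes, that on the wild type at 12 h by 3.57% and that on the own 0 h level by 4.21%. A normalized read count is the number of reads counted for a gene, divided by a scaling factor of its library.

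SPEECHLESS (SPCH) is a basic helix-loop-helix transcription factor that starts the stomatal lineage in the young shoot epidermis, where it acts together with the related factors ICE1 and SCRM2. The SPCH1-4A form carries changes in its phosphorylation sites, and fusion to the glucocorticoid receptor (GR) holds a protein in the cytoplasm until a steroid such as dexamethasone is added. Many of the genes described here are known from other tissues than stomata: triterpene synthesis, the endoplasmic reticulum bodies and lectins that belong to glucosinolate defence, lipid-binding secreted proteins, mineral and water transport in roots, and the cell surface.

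The inducible line carried ATML1pro:GR-SPCH1-4A-YFP, driven by the promoter of ATML1, a gene of the epidermal cell layer, and was compared with the Wild Type. Both lines were cold treated for 2 days, grown in liquid MS medium with 1% sucrose at 90 rpm, and given 100 μM dexamethasone at 7 dpg. Each line was sampled at 0 h, before the steroid, and at 12 h, with 4 libraries of polyadenylated RNA from seedlings in each of the 4 groups. Every 12 h library had received dexamethasone, so the steroid and the elapsed time cannot be told apart within a line, and the wild type received both. The labels do not say that libraries came from separate cultures, so the spread between them may be technical. In RNA from seedlings, fewer cells of a type and less RNA per cell cannot be told apart.

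The libraries held between 16251477 and 22944391 reads assigned to genes. SPCH itself, whose reads include those from the transgene, averaged 63.4 ± 6.26 (SD, n = 4) normalized counts in the wild type at 0 h and 65.7 ± 5.73 at 12 h, against 140 ± 16.2 and 200 ± 31.6 in the inducible line. Replicates 1 and 2 of every group shared a sequencing lane and replicates 3 and 4 a second lane. As a check of the induction, 6 of 10 stomatal lineage genes were higher in the interaction of line and time (limma, adjusted p below 0.05). Of all genes tested, 0.0964% were. Among the 6 was the receptor gene TMM, with a log2 difference of 2.32 ± 0.18 (SE). SPCH itself, at 0.46 ± 0.21, and MUTE, FAMA and EPF1 were not called.

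The members were chosen for being low in induced seedlings, so their ratios there are a description and carry no test. The median ratio of the induced mean to the wild type at 12 h was 0.413, with a range from 0.042 to 0.599, and the median ratio to the same line at 0 h was 0.45, with a range from 0.082 to 0.592. At or below 0.5 of the wild type stood 111 members, at or below 0.3 stood 22, and at or below 0.1 stood 1. In the wild type the median ratio of 12 h to 0 h was 1.007, with 75 members above 1 and 71 below it. Summed over the members, the share of all counts was 0.884% in the wild type at 0 h, 0.931% at 12 h, 0.839% in the inducible line at 0 h and 0.404% after induction. The levels spanned a wide range, from a wild-type 12 h mean of 22.7 for HFR1 to 34253 for PBP1, with a median of 217.

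**Figure D1:**
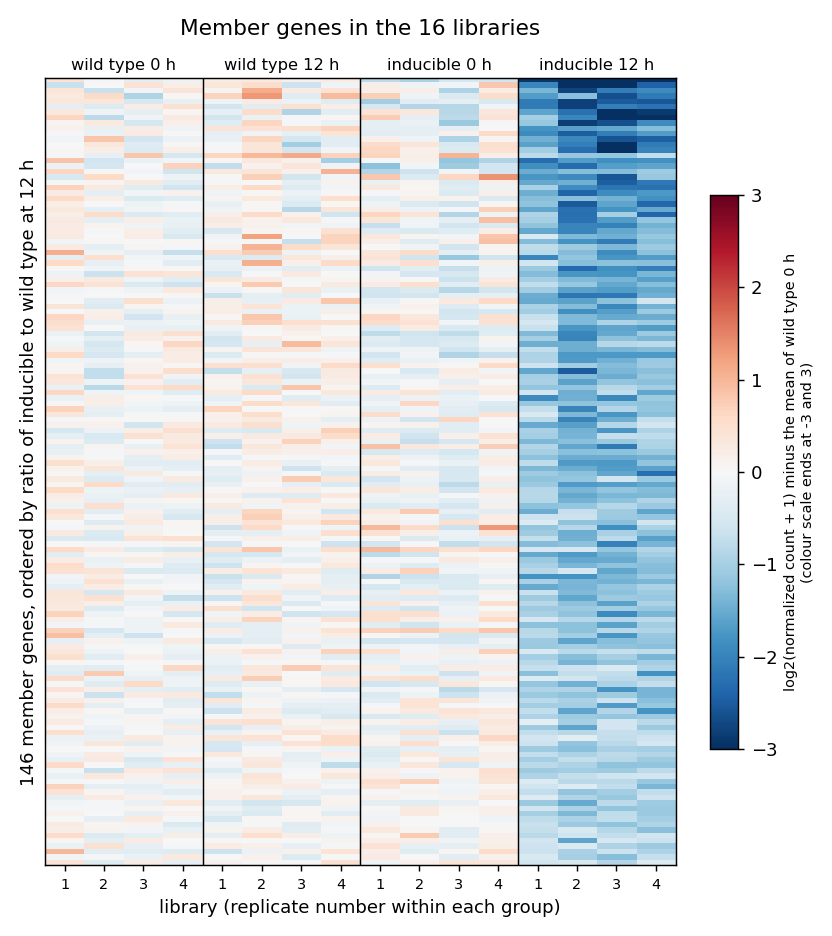
Rows are the 146 member genes and columns the 16 libraries; colour gives log2(normalized count + 1) minus the wild-type 0 h mean of the gene, with the colour scale ending at -3 and 3. The 4 libraries of the inducible line at 12 h are blue throughout, as the rule requires, and the other 12 libraries scatter around 0.

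Within each library the median member lay close to the wild-type 0 h mean in every group except the induced seedlings. On the log2(normalized count + 1) scale, the 4 induced libraries had medians of -1.004, -1.35, -1.29 and -1.18 relative to the wild-type 0 h mean. The inducible line at 0 h had medians of -0.04, -0.07, -0.26 and 0.12, and the wild type at 12 h of -0.09, 0.13, -0.01 and 0.03. The induced replicate 1 was the least lowered of its group and no other group came near the induced values.

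**Figure D2:**
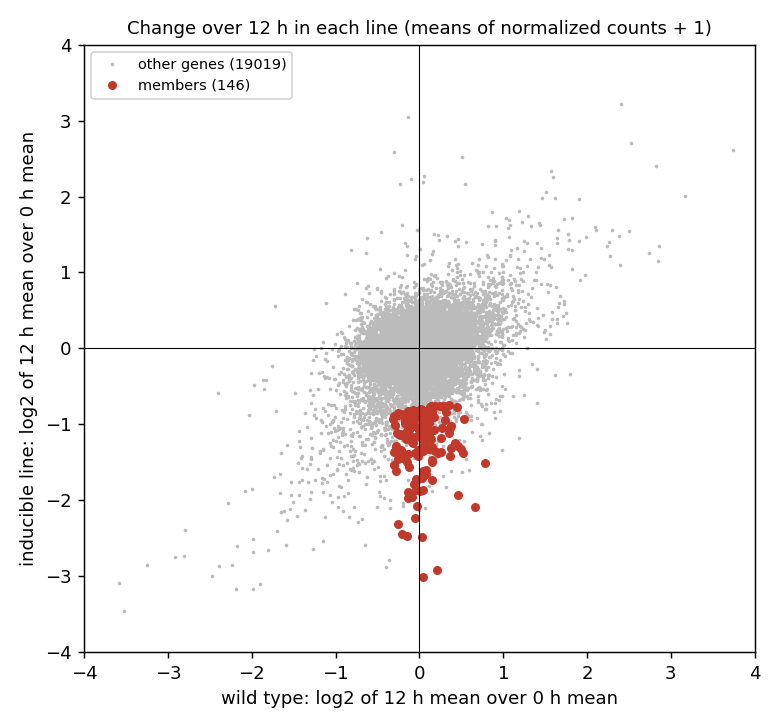
Each point is a gene with a wild-type 12 h mean of at least 20; the horizontal axis gives log2 of the 12 h mean over the 0 h mean in the wild type and the vertical axis the same ratio in the inducible line, both from means plus 1. The 146 members (red) lie below 0 vertically, with a median ratio of 0.45, and around 0 horizontally, with a median ratio of 1.007, both set by the rule; the 19019 other genes are grey and the axes end at -4 and 4.

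A linear model over 20756 genes that reached 10 normalized counts in 4 or more libraries (limma on log2(normalized count + 1), Benjamini-Hochberg adjusted p below 0.05) held all 146 members. In the interaction of line and time, which asks whether the lines differ in their change over 12 h, 36 members were called lower, where 0.414% of all genes tested were called lower, and 0 were called higher, where 0.0964% of all genes were. In the inducible line over time 133 members were called lower (3.68% of all genes) and 0 higher (1.44%), and between the lines at 12 h 139 were called lower (2.2% of all genes) and 0 higher (1.2%). These contrasts chose the members, so nothing is read from those counts. With the replicate number as a block, the interaction called 96 members, and 518 genes in all instead of 106 (1.81% of all genes lower). Without 1 library at a time it called between 16 members (without induced replicate 3; 53 genes in all, 0.178% of all genes lower) and 74 (without wild-type 0 h replicate 1; 454 genes in all, 1.47% lower). The members' number moved by over 1.5 times for 11 of the 16 libraries.

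The wild type over time called 0 of the 146 members (2.27% of all genes were called higher and 2.45% lower), with limma and with edgeR alike. At an unadjusted p below 0.05, 5 members were higher and 0 lower, where 9.74% and 10.3% of all genes were. This contrast also entered the rule, through its lower limit only. With the replicate block, which called 6.19% of all genes higher, 1 of the 146 members was called higher, AT1G72140, whose wild-type mean was 155 ± 21.8 (SD, n = 4) at 0 h and 219 ± 20.2 at 12 h.

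Genes chosen by the rule in the libraries of a single lane were read in the libraries of the other lane. The rule itself was set with earlier results of these data known, and the lanes may not hold separate cultures. The shares below are therefore a description and not an independent replication. When the rule was applied to lane 1 alone (replicates 1 and 2), it took 224 genes, 113 of them members. In lane 2, 171 of these 224 (76.3%) had an induced mean at most 0.6 of the wild type at 12 h, against 4.44% of all genes at the level minimum there. For 160 of the 224 (71.4%) both induced libraries of lane 2 were below its 6 other libraries, against 7.69% of all genes, and 220 of the 224 were lower than the wild type at 12 h, with a median log2 ratio of -1.14. Genes chosen in lane 2 were read in lane 1 in turn. Of these 277 genes, 129 of them members, 194 (70.04%) were at most 0.6 of the wild type against 3.83% of all genes, and 183 (66.1%) did not overlap against 8.04%. Their median log2 ratio in lane 1 was -0.97. The genes that meet the rule in both lanes number 116.

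**Figure D3:**
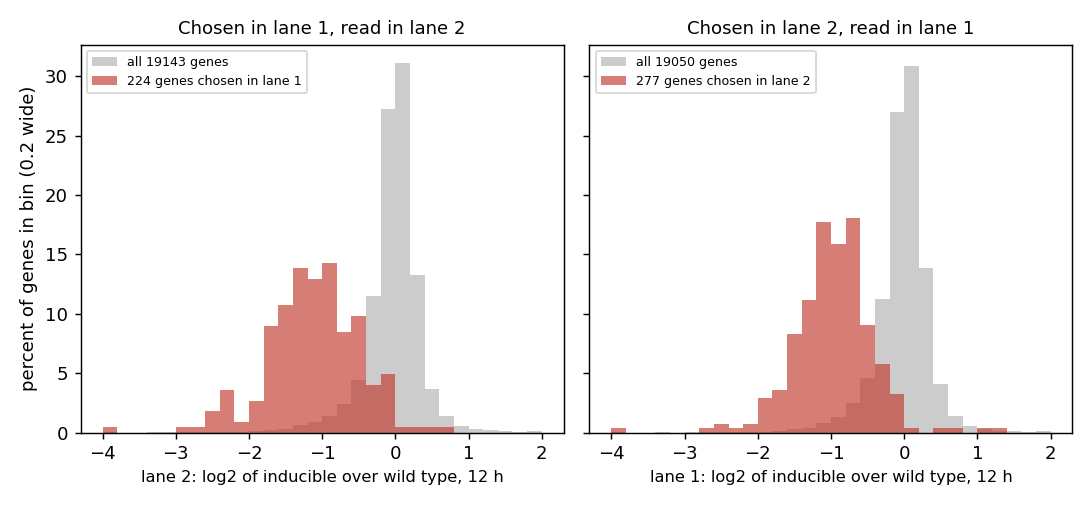
Histograms of log2 of the induced over the wild-type mean at 12 h, in percent of genes per bin of 0.2, read in the lane that did not choose the genes. Red bars are the 224 genes chosen in lane 1 (left) and the 277 chosen in lane 2 (right), with medians of -1.14 and -0.97; grey bars are all genes at the level minimum in the lane read, 19143 on the left and 19050 on the right, with medians of 0.005 and 0.01, and genes past -4 or 2 are counted in the end bins.

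Between the lines at 0 h, a contrast the rule did not use although its libraries enter the other ratios, 0 of the 146 members passed (1.42% of all genes were called higher in the inducible line and 0.573% lower), with limma and with edgeR. The median log2 difference of the members was -0.04 beside 0.00 for all genes tested, with 66 members above 0 and 80 below it. At an unadjusted p below 0.05, 13 of the 146 members were lower and 3 higher in the inducible line, where 9.14% of all genes were lower and 9.65% higher. With the replicate block 7 members (4.79%) were called, a smaller share than that of all genes in the same fit (5.46% lower and 5.87% higher). The lower 5 were AT1G14960, MLP28 and MLP329 of the major latex protein family, NSP4 and JAL33, with log2 differences of -0.58, -0.57, -0.62, -0.37 and -0.60; PCK2 and AT2G34350 were higher by 0.72 and 0.67. Leaving out wild-type 0 h replicate 1 gave 4 calls (2.74% of the members, against 8.69% of all genes), and leaving out induced replicate 1 or wild-type 12 h replicate 3 gave 1 each (0.685% of the members, against 1.54% and 2.23% of all genes). The ratio of the 0 h means ranged from 0.585 for HFR1 to 1.657 for ALD1, an aminotransferase of pipecolic acid synthesis.

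At the limit of the rule, the members nearest inside had induced means at 0.581 (AT1G34510), 0.587 (PEN1) and 0.599 (BGLU6) of the wild type at 12 h. The nearest genes outside that met every other condition stood at 0.603 (LTP6), 0.609 (AGL102) and 0.609 (AT1G44050).

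Marneral synthase, MRN1 (chr5:17053453-17058245, plus strand; all positions are those of RefSeq, TAIR10.1), makes the triterpene marneral from oxidosqualene, and CYP705A12 (chr5:17023502-17025361, minus strand) is a cytochrome P450 gene in the same stretch of chromosome 5. MRN1 measured 2534, 1892, 1683 and 2118 normalized counts in the 4 wild-type libraries at 0 h, 1707, 2964, 1086 and 1639.7 in those at 12 h, 2755, 2532, 1144 and 2587 in the inducible line at 0 h and 678, 429, 242 and 275 after induction. All 4 induced libraries were below the lowest other value, that of the wild type at 12 h in replicate 3. The means were 1849 ± 794 in the wild type and 406 ± 199 in induced seedlings at 12 h, a ratio of 0.220. The normalized counts of CYP705A12 were 652, 1234, 465 and 606 in the wild type at 0 h, 587, 1074, 478 and 541 at 12 h, 765, 637, 362 and 729 in the inducible line at 0 h and 253, 180.3, 114 and 125 at 12 h. Its induced mean was 0.251 of the wild type at 12 h. Within groups, replicate 2 was the highest of the wild type at 12 h for both, and replicate 3 was the lowest in all 4 groups.

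The members were 0.762% of the 19165 genes at the level minimum, the share beside which the family counts are given. Family totals include any of the 12 loci left out by name, which are never counted as members. A member count can therefore be smaller than the number of family genes that met every condition. Family medians and counts of ratios below 1 include the members, whose own ratios the rule set. For all 19165 genes the median log2 ratio of induced to wild type at 12 h was 0.009. Of the 22 genes annotated as terpene synthase or cyclase at the level minimum, 3 were members, MRN1, AT3G32030 at a ratio of 0.402 and PEN1, the arabidiol synthase, at 0.587; the median ratio of all 22 was 0.819. The acyltransferase gene AT5G47950 was picked for mention outside any ranking and was the only member, 1 of 42, of the HXXXD acyltransferase genes. It stood at 372 ± 30.8 in the wild type and 108 ± 27.6 in induced seedlings at 12 h. CYP710A4, of the P450 family that holds sterol C-22 desaturases, stood at 544 ± 206 and 139 ± 58.7. At 0 h the CYP710A4 libraries overlapped between the lines, with 628 ± 124 in the wild type and 757 ± 213 in the inducible line.

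MD-2-related lipid recognition proteins are small secreted proteins with a lipid-binding fold. This family was matched on its product text after the members had been read, and 5 of its 8 genes at the level minimum were members. With the members included, 7 of the 8 had a ratio below 1. The family median was 0.462, and the rule, through the 5 members, held it at or below 0.6. AT5G23820, AT5G23830 and AT5G23840 lie next to each other on the plus strand of chromosome 5, from 8031165 to 8037110. In replicates 1 to 4, AT5G23840 stood at 2434, 1819, 1064 and 1357 normalized counts in the wild type at 0 h and 1622, 2793, 1375 and 1607 at 12 h, and at 2447, 1988, 1106 and 2177 in the inducible line at 0 h and 993, 633, 554 and 566 at 12 h. The induced libraries did not overlap any other group, although replicate 3 was the lowest library of all 4 groups. AT5G23820 measured 3406, 2525, 3406 and 2483 normalized counts in the 4 wild-type libraries at 0 h, 2271, 2597, 2422 and 3221 in those at 12 h, 2853, 2862, 3496 and 3260.4 in the inducible line at 0 h and 1348, 999, 1028 and 1279 after induction. The other 3 groups overlapped each other. The induced means were 0.443, 0.482 and 0.371 of the wild type at 12 h, and the unlinked members AT1G45015 and AT2G26370 stood at 0.249 and 0.307. The 3 neighbours align to each other at 74.7% to 79.9% identity over 402 to 1366 bases, and how the counting treated reads they share is not stated, so their separate values are uncertain.

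The 250 bases before the annotated start of these 3 neighbours, from RefSeq (TAIR10.1), are shown because the genes are adjacent and were lowered together; capitals mark matches to the 6-letter words searched, CACGTG and TTGACT, on either strand. The first is the G-box, which many basic helix-loop-helix factors bind, and the second holds the core of the W-box of WRKY factors; here it is read on the other strand.
AT5G23820, chr5:8030915-8031164, plus strand: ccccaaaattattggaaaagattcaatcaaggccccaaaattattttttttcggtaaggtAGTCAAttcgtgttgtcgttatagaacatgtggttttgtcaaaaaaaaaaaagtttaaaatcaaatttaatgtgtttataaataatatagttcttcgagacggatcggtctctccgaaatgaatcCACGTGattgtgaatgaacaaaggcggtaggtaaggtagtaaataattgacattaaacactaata
AT5G23830, chr5:8033415-8033664, plus strand: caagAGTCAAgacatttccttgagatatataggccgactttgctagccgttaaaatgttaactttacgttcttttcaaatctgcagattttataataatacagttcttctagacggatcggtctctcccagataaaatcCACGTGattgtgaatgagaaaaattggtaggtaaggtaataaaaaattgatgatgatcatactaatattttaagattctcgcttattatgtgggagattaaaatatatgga
AT5G23840, chr5:8035440-8035689, plus strand: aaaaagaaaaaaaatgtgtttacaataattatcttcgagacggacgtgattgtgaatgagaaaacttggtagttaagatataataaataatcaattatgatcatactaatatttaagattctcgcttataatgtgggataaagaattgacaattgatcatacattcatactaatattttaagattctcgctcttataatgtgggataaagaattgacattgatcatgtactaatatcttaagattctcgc
CACGTG begins 65 bases before the start of AT5G23820 and 111 bases before that of AT5G23830. AT5G23840 has no match to either word in this window. Any link between these words and the levels was not tested.

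Endoplasmic reticulum bodies are stores of beta-glucosidase in the cells of seedlings and roots. NAI2 (chr3:5397541-5402653, minus strand) is needed to form them, BGLU22 is a beta-glucosidase of the PYK10 group, PBP1 is a lectin that binds PYK10, and JAL33 and JAL34 are related jacalin lectins. The nitrile-specifier proteins NSP1 and NSP4 turn glucosinolate breakdown towards nitriles. The normalized counts of PBP1 were 37361, 34156, 36108 and 34803 in the wild type at 0 h, 31268, 34525, 37056 and 34165 at 12 h, 30880.2, 32604, 30471 and 31483 in the inducible line at 0 h and 20040.3, 13557, 15470.2 and 17271 at 12 h. It was the highest member in level, and its induced libraries lay far below the other 12. The means at 12 h were 34253 ± 2369.9 in the wild type and 16585 ± 2758 in induced seedlings. At 0 h the inducible line was already somewhat lower, without overlap. The log2 difference was -0.18 ± 0.12 (SE), and limma did not call it. The two-sided exact permutation p was 0.0286, unadjusted and the smallest that 4 against 4 libraries allow. That p was computed for each of the 146 members and is given for PBP1 alone, as a description.

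In replicates 1 to 4, NAI2 stood at 7039.7, 9157, 7578 and 10071 normalized counts in the wild type at 0 h and 5831, 6669, 9214 and 7268 at 12 h, and at 5687, 5909, 5944 and 7735 in the inducible line at 0 h and 3939, 2787, 3436 and 3705 at 12 h. The ratio at 12 h was 0.478, and the 0 h mean of the inducible line, 6319 ± 951, was also below that of the wild type, 8461 ± 1399.5, with overlapping libraries and no call. BGLU22 measured 5406, 4345, 5586 and 5218 normalized counts in the 4 wild-type libraries at 0 h, 7221, 7141, 4779 and 7606 in those at 12 h, 7212, 5483, 5242 and 7755 in the inducible line at 0 h and 3325, 2494, 2083 and 2408 after induction. Among these genes BGLU22 was the highest in the wild type at 12 h relative to 0 h, at a ratio of 1.301. JAL34, with 16267 ± 2548 in the wild type at 12 h, and JAL33, with 8157 ± 1548, stood at 0.382 and 0.361 after induction. NSP1 and NSP4 stood at 0.425 and 0.412. These 5 lectin and specifier genes (NSP1, NSP4, PBP1, JAL33, JAL34) lie within chr3:5566083-5595912, and NSP1 and NSP4 align at 90.3% identity over 1191 bases. Of 120 genes annotated as lectin or jacalin at the level minimum, 6 were members and the median ratio of the 120 was 0.982. The 250 bases before NAI2, from RefSeq (TAIR10.1), hold CACGTG, in capitals, 86 bases before the start.
NAI2, chr3:5402654-5402903, minus strand: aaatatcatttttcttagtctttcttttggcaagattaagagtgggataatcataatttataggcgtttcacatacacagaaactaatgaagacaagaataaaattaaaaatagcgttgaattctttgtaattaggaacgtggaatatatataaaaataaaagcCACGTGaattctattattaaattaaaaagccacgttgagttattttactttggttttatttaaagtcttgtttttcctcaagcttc

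Lipid transfer proteins are small secreted proteins that bind lipids at the cell surface. Of 61 such genes at the level minimum, 7 were members, with ratios from 0.319 to 0.5, and the median of the 61 was 0.9. The normalized counts of AT4G12545 were 15026, 9803, 11455 and 11531 in the wild type at 0 h, 13067, 16934, 11693 and 12464 at 12 h, 17335, 12841, 9231 and 15928 in the inducible line at 0 h and 8596, 4642, 3506 and 4912 at 12 h. The induced libraries were below all others, and replicate 1 was the highest of them. The means at 12 h were 13539.5 ± 2332 and 5414 ± 2207. LP1, a lipid transfer protein of the epidermis, stood at 4251 ± 873 and 2127 ± 448. AT4G12510 and AT4G12520, adjacent on chr4:7417068-7421828, align at 93.3% identity over 660 bases, so their separate ratios of 0.319 and 0.432 are uncertain.

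Major latex proteins are small proteins with a ligand-binding pocket; 5 of 34 were members, AT1G70880, AT1G14960, MLP329, MLP423 and MLP28, with ratios from 0.151 to 0.446, and 27 of the 34 had a ratio below 1. In replicates 1 to 4, AT1G14960 stood at 292, 261, 409 and 482 normalized counts in the wild type at 0 h and 239, 280.2, 481 and 403 at 12 h, and at 247, 189, 193 and 333 in the inducible line at 0 h and 80.4, 48.98, 84.3 and 75.04 at 12 h. The 0 h values of the inducible line overlapped those of the wild type but were lower on average, at a ratio of 0.666. MLP28 was the most abundant of these 5, at 3002 ± 609 in the wild type and 1339 ± 326 in induced seedlings. At 0 h, MLP28 was lower in all 4 libraries of the inducible line (2549 ± 491) than in any of the wild type (3742 ± 405).

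TRAF-like proteins carry the MATH domain named after TRAF signalling proteins, and their role in plants is known for few of them. The family was also matched after the members had been read; 5 of 34 were members, AT5G26290, AT5G26260, AT3G20370, ZW9 and AT2G04170, and the median ratio of the 34 was 0.994. AT5G26260 measured 5386, 5889, 4469 and 3924 normalized counts in the 4 wild-type libraries at 0 h, 6197, 5770.5, 4695 and 5166 in those at 12 h, 5264, 4952, 3131 and 5736 in the inducible line at 0 h and 2387, 1932, 1845 and 1573 after induction. The induced libraries lay below every other value, and in the inducible line at 0 h replicate 3 was the lowest. AT3G20370 was next in level, with 2593 ± 374 in the wild type and 1013 ± 177 in induced seedlings.

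IRT1 (chr4:10707344-10709015, plus strand) is the main iron uptake transporter of the root epidermis. The normalized counts of IRT1 were 3510.2, 1903, 1996 and 1806 in the wild type at 0 h, 3451, 2204, 2288 and 2255 at 12 h, 1831, 2070.1, 1781 and 1599.7 in the inducible line at 0 h and 1338, 561, 1196 and 978 at 12 h. Replicate 1 was far above the others in the wild type at both times, and the induced replicate 1 was also the highest of its group. The mean was 2549 ± 602 in the wild type at 12 h and 1019 ± 339 after induction, a ratio of 0.400.

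ZIP2, a metal transporter related to IRT1 and picked for mention outside any ranking, stood at 80.5 ± 7.76 and 35.5 ± 11.4. Aquaporins, the water channels of membranes, gave 3 members of 25: TIP2;3 of the vacuolar membrane at 0.346, PIP2;4 of the plasma membrane at 0.504 and NLM1 at 0.570; 21 of the 25 had a ratio below 1. In replicates 1 to 4, TIP2;3 stood at 229, 162, 347 and 328 normalized counts in the wild type at 0 h and 186, 250.5, 314 and 259 at 12 h, and at 242, 176, 181 and 234 in the inducible line at 0 h and 103, 75.4, 73.8 and 97.4 at 12 h. The wild type at 0 h varied most, with replicates 3 and 4 above replicates 1 and 2, which follows the lanes. SWEET16, a sugar transporter of the vacuolar membrane, stood at 189.5 ± 27.6 and 102 ± 10.11, and NAXT1, which exports nitrate, at 362 ± 47.9 and 188 ± 39.3. Of 128 genes of the major facilitator, nitrate and peptide transporter families, 7 were members, and of 61 ABC transporter genes 0 were. The group of other transporters, which holds IRT1, ZIP2, SWEET16 and NAXT1, had 6 members of 537 genes (1.12%). That is near the 0.762% of all genes at the level minimum, and the median ratio of the 537 was 1.005.

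Arabinogalactan proteins are heavily glycosylated proteins of the cell surface, and AGP30, AGP22, AGP24 and AGP13 were members, 4 of 42 arabinogalactan and fasciclin genes. AGP30 measured 125, 219, 144 and 141 normalized counts in the 4 wild-type libraries at 0 h, 111, 116, 195 and 171 in those at 12 h, 200.2, 101, 69.4 and 102 in the inducible line at 0 h and 38.8, 67.6, 45.02 and 47.4 after induction. The induced libraries were below the lowest other value, 69.4 in the inducible line at 0 h. The induced means of AGP22, AGP24 and AGP13 were 0.404, 0.443 and 0.471 of the wild type. The following genes were chosen for mention after their values were seen. EXPA5, an expansin that loosens cell walls, stood at 437 ± 90.2 and 160.2 ± 44.4. BXL1, a beta-xylosidase of the wall, stood at a ratio of 0.399, and CER4, the fatty acyl reductase that makes wax alcohols, at 0.416. GH3.17, which joins auxin to an amino acid, stood at 773 ± 72.2 in the wild type and 296 ± 71.5 after induction.

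GL3 (chr5:16529090-16533287) is a basic helix-loop-helix factor of trichome and root hair patterning, TTG2 (chr2:15644811-15647076) a WRKY factor of trichomes and the seed coat that acts downstream of it, and HDG11 (chr1:27578421-27582685) an HD-ZIP IV factor of trichome branching. The normalized counts of GL3 were 21.7, 23.4, 22.4 and 23.4 in the wild type at 0 h, 24.9, 27.6, 25.1 and 18.7 at 12 h, 19.9, 15.2, 36.3 and 22.8 in the inducible line at 0 h and 12.6, 4.898, 7.66 and 13.4 at 12 h. Levels were low and the inducible line at 0 h varied widely, but the induced libraries stayed below every other. In replicates 1 to 4, TTG2 stood at 67.5, 61.9, 55.6 and 44.6 normalized counts in the wild type at 0 h and 73.7, 60.3, 51.2 and 50.5 at 12 h, and at 45.1, 75.3, 73.6 and 52.8 in the inducible line at 0 h and 31.98, 28.4, 36.4 and 23.2 at 12 h. The lowest other library, replicate 4 of the wild type at 0 h, was little above the highest induced library. HDG11 measured 206, 162, 131 and 122 normalized counts in the 4 wild-type libraries at 0 h, 167, 156, 135 and 126 in those at 12 h, 148, 163, 139 and 174 in the inducible line at 0 h and 90.1, 66.6, 73.8 and 90.2 after induction. The highest induced library of HDG11 was at 90.2 and the lowest other at 122. Its ratio was 0.549, beside 0.509 for TTG2 and 0.400 for GL3.

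The other members that encode DNA-binding factors were AT1G62975 at a ratio of 0.396, B70 at 0.544, LBD4 at 0.567, MYB74 at 0.306, the AT-hook protein AT4G22810 at 0.527 and HFR1, an atypical helix-loop-helix factor of light signalling, at 0.260. HFR1 and the other 3 basic helix-loop-helix members were 4 of 90 such genes, whose median ratio was 0.948. The families annotated as NAC (0 of 64), AP2 or ERF (0 of 26) and zinc finger (0 of 356) held no member, beside the overall share of 0.762%, from which these counts were not tested to differ. The 250 bases before TTG2, from RefSeq (TAIR10.1), are shown because they hold CACGTG 183 bases, CTCGTG 157 bases and CGCGTG 151 bases before the start, all in capitals.
TTG2, chr2:15644561-15644810, plus strand: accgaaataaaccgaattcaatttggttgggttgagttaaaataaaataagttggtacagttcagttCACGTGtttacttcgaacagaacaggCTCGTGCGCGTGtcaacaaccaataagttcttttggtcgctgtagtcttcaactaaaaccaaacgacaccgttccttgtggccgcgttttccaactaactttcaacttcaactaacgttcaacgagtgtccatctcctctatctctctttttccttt

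THI2.2 encodes a thionin, a small antimicrobial peptide. The normalized counts of THI2.2 were 38.9, 27.6, 23.5 and 25.5 in the wild type at 0 h, 34.02, 34.8, 31.1 and 33.6 at 12 h, 15.7, 14.3, 19.2 and 19.1 in the inducible line at 0 h and 2.91, 0, 0 and 2.68 at 12 h. It was at 0 in induced replicates 2 and 3, where a count of 0 allows up to 3 reads, and its induced mean was 0.0418 of the wild type at 12 h. At 0 h it was already lower in all 4 libraries of the inducible line than in any of the wild type, at a ratio of 0.592, and limma did not call that difference. In replicates 1 to 4, AT1G52130 stood at 20.6, 33.5, 44.9 and 38.2 normalized counts in the wild type at 0 h and 41.96, 48.1, 21.1 and 29.9 at 12 h, and at 37.7, 30.5, 30.9 and 58.2 in the inducible line at 0 h and 7.75, 0, 2.87 and 5.36 at 12 h. This gene of the mannose-binding lectin group was next, at 0.113. Below a ratio of 0.25 also stood AT1G70880 (0.151), the phosphoglycerate mutase family gene AT5G04120 (0.159), the methyltransferase gene AT3G21950 (0.185), AT1G14960, MRN1, the thioredoxin family gene AT4G12170 (0.230), AT4G37700 (0.235), AT1G72140 and AT1G45015.

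**Figure D4:**
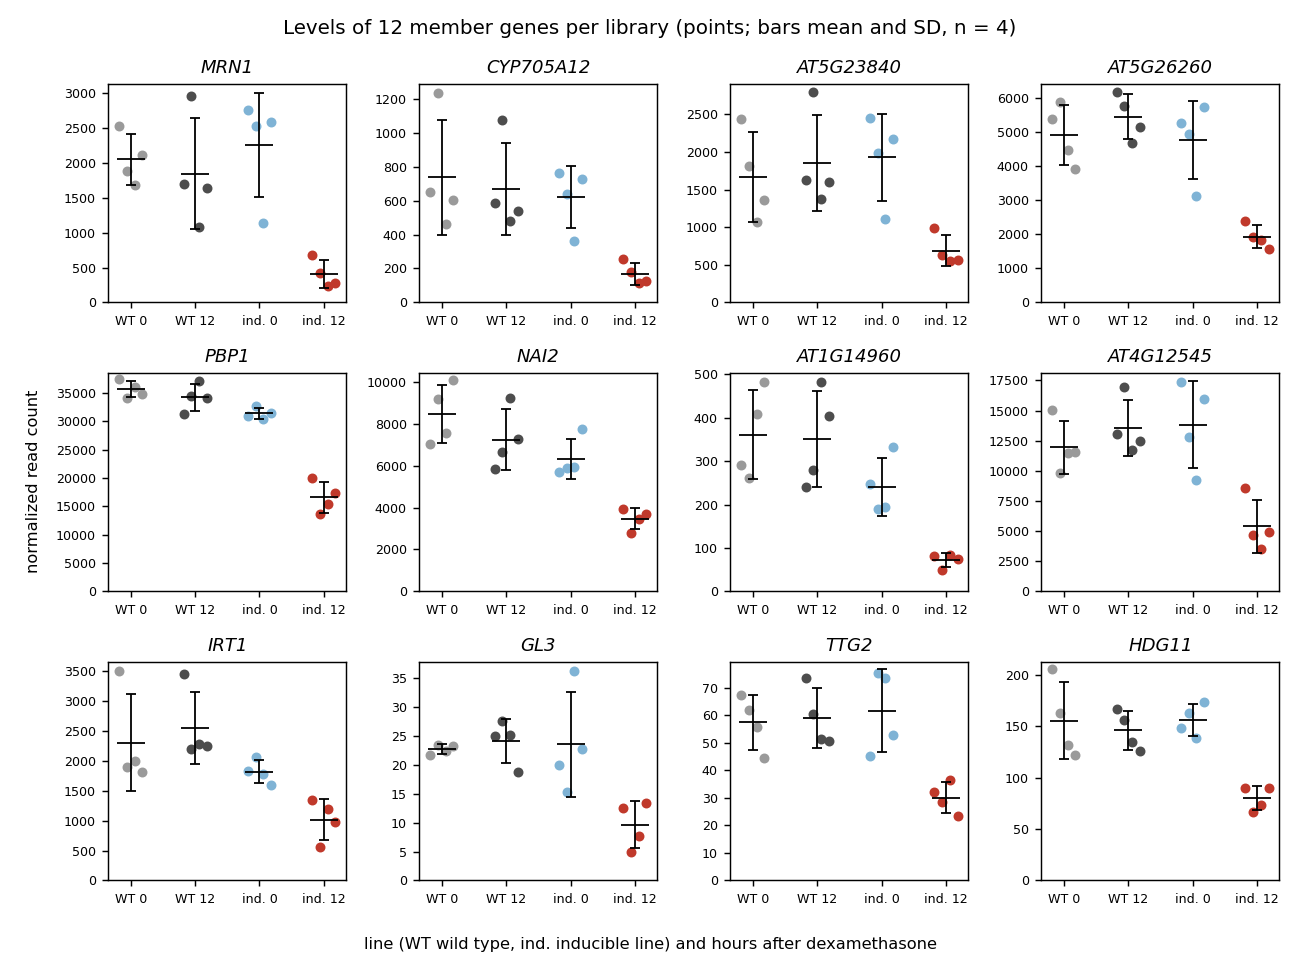
Normalized read counts of 12 members, 1 panel each, with a point per library, in the wild type (WT) and the inducible line (ind.) at 0 and 12 h; bars give the mean and SD (n = 4) and every vertical axis starts at 0. The induced libraries (red) are below all others in each panel, by a wide gap for PBP1 and a narrow gap for AT4G12545, AT5G23840, GL3, IRT1 and TTG2.

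Of 1103 genes whose product text names a kinase, 9 were members, a share of 0.816%, and the median ratio of the 1103 was 0.995. They included the wall-associated kinase-like genes WAKL4 (0.314) and WAKL5 (0.528), CPK22 (0.267), CRK42 (0.531) and IRE, a kinase of root hair growth, at 0.549; PCK2, also in the 9, is a carboxykinase of metabolism. The annexins ANNAT3 and ANNAT4, proteins that bind membranes with calcium and that were matched after the members had been read, stood at 0.466 and 0.361, 2 of 5 annexin genes, all 5 of which had a ratio below 1. Of the cysteine- and histidine-rich C1 domain genes, likewise matched afterwards, 3 of 74 were members, and the median ratio of the 74 was 0.797.

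Members lay on all 5 nuclear chromosomes, 38 on chromosome 1, 19 on 2, 27 on 3, 28 on 4 and 34 on 5, of 5038, 2886, 3781, 2925 and 4450 genes at the level minimum. At most 3 annotated genes apart were 9 pairs formed by 14 members, and 5 of these pairs shared their product name.

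The notes in the annotation, which the rule did not use, gave other shares for the members than for all genes at the level minimum. Whether a note rests on experiment or on prediction was not examined. Of 102 members with a stated location, 44 (43.1%) named the endomembrane system, against 15.97% of the genes at the level minimum that had a location, and 4.90% named the chloroplast against 19.98%. Of 78 members with a note on where they are expressed, 32 (41.0%) named the root, against 5.06%, and 48 (61.5%) were listed for at most 10 plant structures, against 17.1%. Many notes give only the number of structures and no names, so the shares for roots and for few structures are linked. These shares were not tested.

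Because roots are named so often, marker lists of other cell types were set beside the members. IRT1 was the only member on any of the 10 marker lists. Of 45 other genes on 5 root lists (Casparian strip, suberin synthesis, root hair, root cap, root uptake and xylem loading), 44 were tested. Between the lines at 12 h 7 of them were lower (2.2% of all genes), 40 of the 44 log2 differences were negative and the median was -0.52, where that of the members was -1.26. In the interaction 1 was lower, the sulfate transporter SULTR1;2, with a median over the 44 of -0.53. In the inducible line over time the median was -0.23 beside -1.14 for the members, and in the wild type over time 0.35 with 3 genes called higher. The rule set the members' medians and did not choose the root list genes, so nothing is read from the distance between them. ESB1, ABCG2 and AMT1;1 of the root lists varied widely within groups, with SEs of 2.88, 2.66 and 2.49 for the log2 interaction. That left little room to call them, and ESB1 also enters the Casparian strip sums below.

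By library, the median of the root list genes relative to the wild-type 0 h mean was 0.04, -0.45, -0.23 and -0.45 after induction, and 0.27, 0.27, 0.28 and 0.41 in the wild type at 12 h. In the same 4 induced libraries the members, chosen for being low there, stood at -1.004, -1.35, -1.29 and -1.18. Replicate 1 was the highest of the 4 for both. At 0 h the root list medians were 0.05, 0.02, -0.19 and 0.20 in the inducible line. Their part in the result was not tested.

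**Figure D5:**
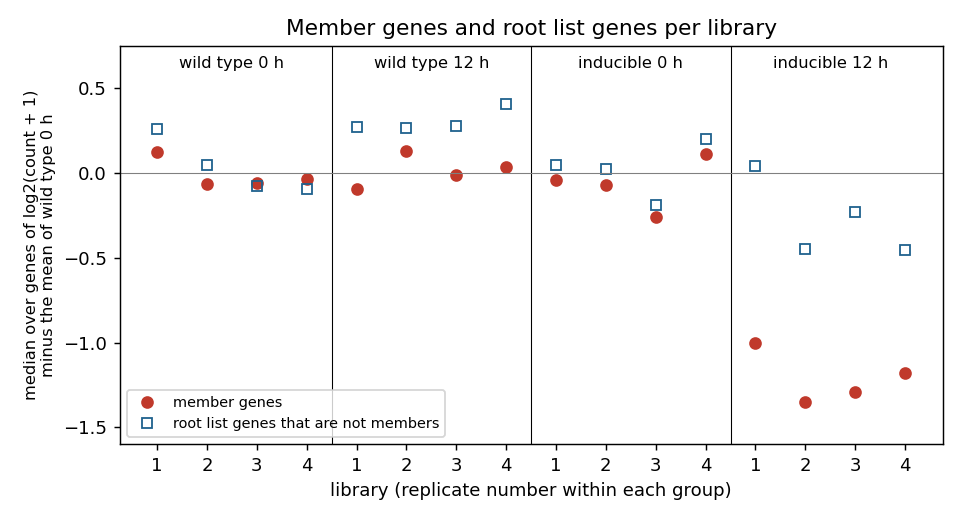
For each library, the median over genes of log2(normalized count + 1) minus the wild-type 0 h mean, for the 146 members (red circles) and the 45 root list genes that are not members (open blue squares). After induction the members lie between -1.35 and -1.004, as the rule requires low values there. The root list genes, which the rule did not choose, lie between -0.45 and 0.04.

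The summed levels of each root list were compared at 12 h. Casparian strip genes summed to between 456.5 and 857 normalized counts in induced libraries and 819 to 1014 in the wild type at 12 h, suberin genes to 2307 to 3887 and 4204 to 4448, root hair genes to 636 to 1263 and 1038 to 2015, root cap genes to 39.3 to 59.1 and 65.4 to 89.0, and root uptake genes, IRT1 included, to 24799 to 31175 and 30819 to 36475. At 12 h the ranges were separate for suberin and root cap genes and overlapped for the other 3 lists. The induced suberin sums overlapped those at 0 h, 2381 to 3354 in the wild type and 2761 to 3483 in the inducible line. In the wild type the mean suberin sum was 2853 at 0 h and 4326 at 12 h. The induced root cap sums overlapped those of the inducible line at 0 h, 43.0 to 69.2. No list gene was at 0 in every library.

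For the remaining lists the interaction called 0 genes of xylem, phloem, guard cell, leaf photosynthesis, shoot epidermis, flavonoid synthesis and iron-deficiency coumarins, and their median log2 interaction lay between -0.25 and 0.16. Between the lines at 12 h, LHCB2.1 of the photosynthesis list, ATML1 of the shoot epidermis list and FLS1 of flavonoid synthesis were lower, with log2 differences of -0.76, -0.57 and -0.81. F3H of flavonoid synthesis was at 0 in 4 libraries, and an SE of 5.8 for its log2 interaction left little room for a call.

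The 250 bases before the start were read for 144 members and for 27443 genes with an entry, on both strands, for 6-letter words. CTCGTG stood in 17 members (11.8%) and in 4.16% of all promoters, and CACGTG in 13 members (9.03%) and 6.49%. CGCGTG stood in 1.39% and 2.57%, TTGACC in 10.4% and 12.2%, TTGACT in 22.9% and 19.1%, and AAACCC in 9.72% and 16.7%. The general helix-loop-helix word CANNTG, which includes CACGTG, stood in 56.9% and 55.3%. Of the 5 TRAF-like members, AT5G26260, AT5G26290 and AT3G20370 held CTCGTG in this window and ZW9 and AT2G04170 did not. A match describes the letters of the window and not binding, and the shares were not tested.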

How the data were processed

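Polyadenylated RNA of Arabidopsis seedlings was measured in 16 libraries, 4 for each line and time, between 16251477 and 22944391 reads each. Per the submitters' processing notes, TopHat, SAMtools, HTSeq and DESeq2 were used with the TAIR10 build. The authors deposited 1 table of counts divided by a size factor per library (a signal, not raw counts); 100% of its values are whole multiples of the library's step within 0.001 reads, so the reads could be recovered. A count of 0 allows up to 3 reads, at most 1.85e-05% of a library, and this covers counting error only. Whether the counting used strand, and how it treated shared reads, is not stated.

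The 146 members were found by the rule on group means of the deposited values. The members and all gene lists were chosen with earlier results of these data known. The 20756 genes that reached 10 normalized counts in 4 or more libraries entered limma 3.58.1 in R 4.3.3 on log2(value + 1), fitted with trended and robust variance, 4 group means over all 16 libraries and Benjamini-Hochberg adjustment at 0.05. That the unit was not raw counts is why limma gave the main result; edgeR 4.0.16 and DESeq2 1.42.0 were run on the recovered reads as alternatives, beside other pseudocounts, filters, TMM factors, a lane term, each lane alone and each library left out. In the interaction edgeR called 107 genes in all, 39 of them members. The limma and edgeR fits were tested on simulated data, and DESeq2 was not. The simulated counts held no lane effect, so that test cannot show how the lane affects the calls. Tables were handled in Python 3.11.15 with pandas 2.3.3.

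Replicate numbers are shared between groups. Deviations from group means correlated at 0.521 to 0.718 in all 24 pairs of libraries of the same number, so results that a replicate block changes are printed with it. Pairs of other numbers in the same lane correlated as much, at 0.533 to 0.765, and pairs in different lanes at -0.747 to -0.532, so the numbers carry the lane.

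Genes were named by rank: the lowest ratios, the highest levels, up to 4 per product family with 3 or more members, neighbours at most 3 genes apart, up to 8 transcription factors, and genes at the limit. Others were named as further members of a listed family, as list genes, as called genes or at the end of a range. Genes picked outside any ranking or after their values were seen are marked in the text. The MD-2-related, TRAF-like, annexin and C1 families were added after the members were read. Coordinates, product names, annotation notes and promoter sequences come from RefSeq (TAIR10.1). Neighbours were aligned with blastn 2.17.0.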

Additional observations from a re-analysis of the deposited data

Results flagged for a closer look

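Among the 79 named members, 316 groups of 4 libraries were examined, and in 15 the highest or lowest library stood far from the nearest of the others; chance alone sets such a library apart in about 1 in 20 groups. Replicate 1 of the wild type was high for IRT1 at both times, at 3510 normalized counts at 0 h (next 1996) and 3451 at 12 h (next 2288). It was also high at 0 h for AT5G54145, at 509.9 (next 307.8), and for IRE, at 131.5 (next 73.3). The median of all members relative to the wild-type 0 h mean was likewise set apart in that library, at 0.126 on the log2 scale. At 12 h, replicate 1 was low for NLM1, at 131.5 (next 190.2), and replicate 3 was low for BGLU22, at 4779 (next 7141).

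In the inducible line at 0 h, replicate 4 was high for NAI2, at 7735 (next 5944), for SWEET16, at 287.5 (next 221.1), for AT4G12510, at 292.1 (next 197.4), and for AT1G72140, at 152.0 (next 127.9). Replicate 3 was low for MRN1, at 1144 (next 2532), and for AT1G70880, at 9.61 (next 21.9), and replicate 2 for AT1G77765, at 34.3 (next 49.3). After induction, replicate 4 was high for SWEET16, at 117.0 (next 98.0), and replicate 3 for AT3G21340, at 45.0 (next 30.4).

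limma's interaction term, for a difference between the lines in their change over 12 h, called 36 members (0.414% of all genes were called lower), and 16 to 74 without 1 library at a time; this contrast chose the members, so nothing is read from that count.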

How the results depend on the processing

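Medians of the members' ratios moved by less than the spread between libraries under every alternative tried; without each library in turn, the median log2 ratio of induced to wild type at 12 h ranged from -1.33 to -1.22, and that of induced to its own 0 h from -1.25 to -1.08. Counts of calls moved more, and the causes were not tested. The interaction called 36 members in the limma fit reported above, 84 with DESeq2, 97 with a lane term, 96 with the replicate block, 0 in lane 1 alone and 20 in lane 2 alone, both with fewer libraries; over all genes the same fits called 106, 378, 586, 518, 3 and 117. Without 1 library at a time it called 16 to 74 (53 to 454 over all genes): 19, 22 and 18 without replicates 1, 2 and 4 of the inducible line at 0 h, 59, 22 and 16 without induced replicates 1, 2 and 3, 74, 22 and 20 without replicates 1, 3 and 4 of the wild type at 0 h, and 18 and 20 without replicates 2 and 4 of the wild type at 12 h. The inducible line over time called 64 in lane 1 alone, and 110 to 136 without 1 library; the lines at 12 h called 48 in lane 1 alone, and 116 to 140. The wild type over time called 1 (0.685% of the members) with DESeq2, the replicate block, the lane term and lane 2 alone, where 8.61%, 13.3%, 14.5% and 5.49% of all genes were called, and 0 to 2 without 1 library, with 2 (1.37%, against 9.1%) without wild-type 0 h replicate 1. The lines at 0 h called 3 with DESeq2, 7 with the replicate block, 8 with the lane term and 6 in lane 2 alone, or 2.05%, 4.79%, 5.48% and 4.11% of the members against 6.55%, 11.3%, 12.7% and 8.89% of all genes, and 0 to 4 without 1 library. The replicate block moved no other count by over 1.5 times. The rule took 84 genes with a limit of 0.5, 272 without the condition on overlap, 224 in lane 1 and 277 in lane 2; with 1 library left out it took 136 to 215. For the 79 named members no interaction or 0 h difference that was called changed sign: of 2054 interaction values under alternatives, 166 lost the call and 142 gained it, and of 2133 values at 0 h 30 gained it. Members near the level minimum rest on few reads, and the depth limits what can be said of their ratios.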
